A study of Mus musculus with 9 samples.

Results

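The chordoneural hinge (CNH), the end of the notochord and neural tube in the mouse tail, was compared with the presomitic mesoderm (PSM) across all genes measured. The comparison took the 3 CNH arrays against the 3 PSM arrays of E10.5 embryos, 6 of 9 arrays in the series, the other 3 being from the tailbud mesoderm (TBM), which entered the same fit. Both regions were dissected from untreated embryos with no engineered allele, many pieces of a region were pooled for RNA, and the pregnant females were CD1 and C57Bl/6J, with no record of which strain gave which pool. By the study's methods 1 of the 3 arrays of a region repeats another technically, and which one is not recorded, so p-values measure the spread between arrays, which may in part be technical. Of 45281 probes on the Illumina BeadArray, 12121 were detected on every array of the CNH or of the PSM (detection p under 0.01) and were tested, and they carried the symbols of 7670 genes.

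During axial elongation the CNH holds long-lived progenitors, among them neuromesodermal cells that feed both spinal cord and paraxial mesoderm under Wnt and FGF signalling. Their mesodermal descendants pass through the tailbud into the PSM, which loses these signals as it matures, turns epithelial at its anterior end and is cut into somites, the source of axial muscle, cartilage and dermis. A dissected piece also carries neighbouring tissue, which can include notochord, hindgut, vessels and overlying ectoderm.

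Genes used to define these tissues were checked against the labels. Of 32 axial progenitor factors on the array 24 were tested, 6 of them only because the CNH arrays detected them and 2 only because the PSM arrays did, and 18 were higher in the CNH and 2 lower, with a median log2 fold change of 1.95. Of 44 presomitic and somite factors 23 were tested, 7 of them only because the PSM arrays detected them, and 1 was higher and 19 lower, with a median of -1.72. For a gene that passed through a single region the filter favoured a difference in that direction, so these counts describe the tested genes only. Fold changes here are CNH over PSM on the log2 scale of background-corrected, quantile-normalised signal, and a gene was called where limma gave a Benjamini-Hochberg adjusted p under 0.05 and at least a 1.5-fold difference. A gene with several probes is given by its brightest.

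Over all tested genes, 952 were called (12.4%), 575 of them higher in the CNH (7.5%) and 377 lower (4.92%), while the median log2 fold change was -0.04. By probe the calls were 1386 (11.4%), with 820 higher (6.77%) and 566 lower (4.67%), and 1382 of the 1386 had the same sign in all 3 replicate numbers. The groups did not overlap for 1127 genes (14.7%). Some genes entered the test only through the region in which they were high: 97 were detected on all CNH arrays and no PSM array, of which 74 were called higher, and 58 on all PSM arrays and no CNH array, of which 50 were called lower. Members of the lists below and the genes with the largest differences could enter in the same way, so their counts and p-values too describe the tested genes only. For a gene detected on every array of a single region, the filter favoured a difference in that direction. Its p-value is given as description and is no separate support for the difference. In each region, replicate 3 lay far from replicates 1 and 2 (a mean Euclidean distance of 124 over the tested probes, against 24.5 between the first 2 CNH arrays and 22.9 between the first 2 PSM arrays). The fit took the replicate number as a block, and the named genes that were called only with it are given beside their results. Of the called genes named below, Gpr83, Hap1, Elf3, Trp63, Bmf, Epha2, Cdh1 and Cldn11 were detected on 1 of 3 arrays of the region with the lower signal, and Pcdh19, Chrd, Myl2, Galnt16, Igfbp7, Adamtsl2, Adamts12 and Slc7a7 on 2 of 3, so that their fold changes rest in part on signal at background.

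**Figure D1:**
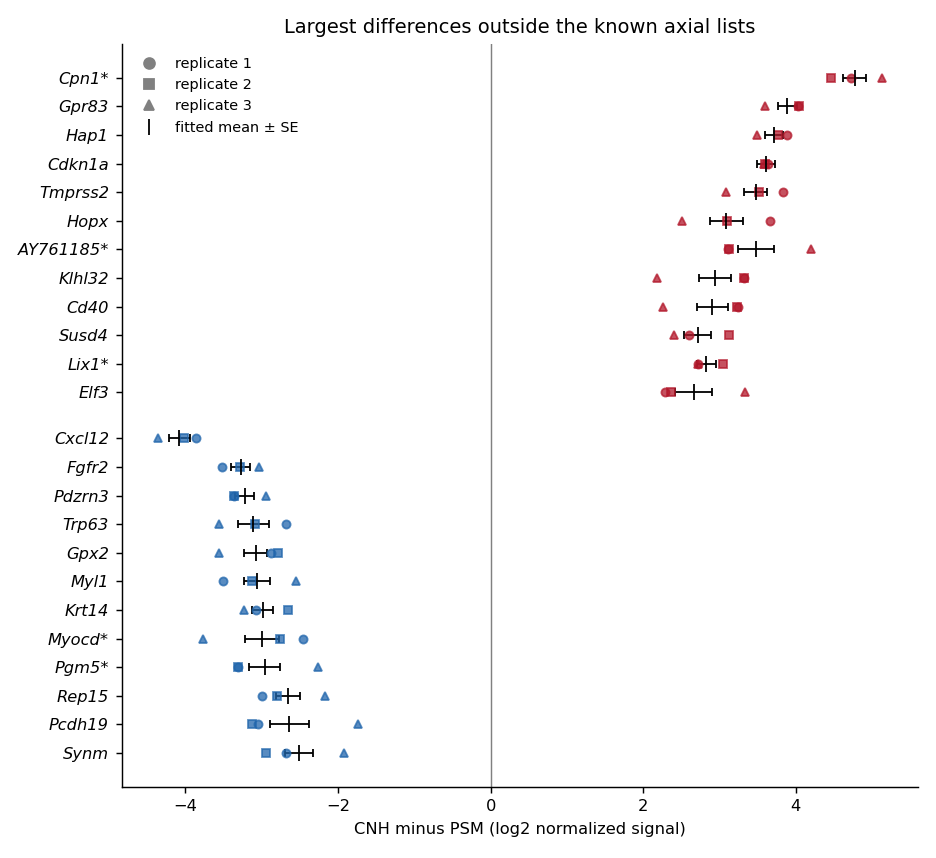
Difference in log2 normalised signal, CNH minus PSM, for the 12 genes furthest from 0 each way outside the lists of known axial genes, with points for replicates 1 to 3 and the fitted mean with its standard error. All points of the upper genes lie right of 0 and all points of the lower genes left of it. Asterisks mark genes that no array of the region with the lower signal detected, for which the text gives a lower bound.

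Outside the lists of Hox genes, alpha-defensins and known axial and somite factors, the 12 genes with the largest positive differences, ranked by the lower bound where no PSM array detected a gene, had unlike functions. Cpn1, the catalytic subunit of carboxypeptidase N, was at 8.89, 8.66 and 9.36 on the CNH arrays and at 4.18, 4.20 and 4.23 on the PSM arrays. No PSM array detected it, and the CNH was at least 16.5-fold higher (adjusted p = 6.19e-08). Gpr83, an orphan-type G protein-coupled receptor of brain and regulatory T cells, was at 8.85, 8.85 and 8.88 in the CNH and 4.82, 4.80 and 5.29 in the PSM (log2 fold change 3.89, SE 0.13, adjusted p = 6.19e-08). The cell cycle inhibitor Cdkn1a (p21) was at 9.38, 9.26 and 9.14 in the CNH and 5.75, 5.66 and 5.56 in the PSM, a log2 fold change of 3.61 (SE 0.12, adjusted p = 6.19e-08), and each of its 3 probes was called. For all 3 genes the arrays of a region lay close together and the regions did not overlap.
The others were Hap1, which binds huntingtin (3.71), the serine protease Tmprss2 (3.48), Hopx, a homeodomain protein that does not bind DNA (3.09), Klhl32 of the kelch family (2.94), Cd40 (2.91), Susd4, an inhibitor of complement (2.71), the epithelial ETS factor Elf3 (2.66), Lix1, at least 6.34-fold higher, and AY761185, at least 8.19-fold higher. Gpr83, Hap1 and Elf3 were each detected on 1 of 3 PSM arrays.

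Furthest below the PSM stood a chemokine, a receptor and a ubiquitin ligase. Cxcl12, which guides migrating cells through the receptor Cxcr4, was at 7.57, 7.48 and 5.29 in the CNH and 11.43, 11.50 and 9.65 in the PSM (log2 fold change -4.08, SE 0.14, adjusted p = 6.79e-08). Fgfr2, a receptor for FGF, was at 6.58, 6.75 and 7.35 in the CNH and 10.09, 10.03 and 10.38 in the PSM (-3.28, SE 0.12, adjusted p = 1.09e-07). Pdzrn3, a ubiquitin ligase of muscle differentiation and Wnt signalling, was at 7.78, 7.81 and 7.69 in the CNH and 11.15, 11.17 and 10.63 in the PSM (-3.22, SE 0.13, adjusted p = 1.86e-07). For each of them the highest CNH array lay below the lowest PSM array.
The remaining lower genes fell into contractile or muscle-linked proteins (Myl1, Myocd, Synm and Pgm5), markers of stratified epithelium (Trp63 and Krt14), the gut glutathione peroxidase Gpx2 (-3.08), the endosomal Rab15-binding protein Rep15 (-2.65) and the X-linked protocadherin Pcdh19 (-2.63). Rab15 itself, the small GTPase that Rep15 binds, was lower as well (-1.70, SE 0.10, adjusted p = 2.57e-06). The other tested chemokine below the PSM was Cxcl14, at least 2.33-fold lower, while Cxcr4 was at 6.96, 6.94 and 8.78 in the CNH and 6.90, 7.02 and 8.74 in the PSM (0.00, SE 0.12, adjusted p = 0.999).

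**Figure D2:**
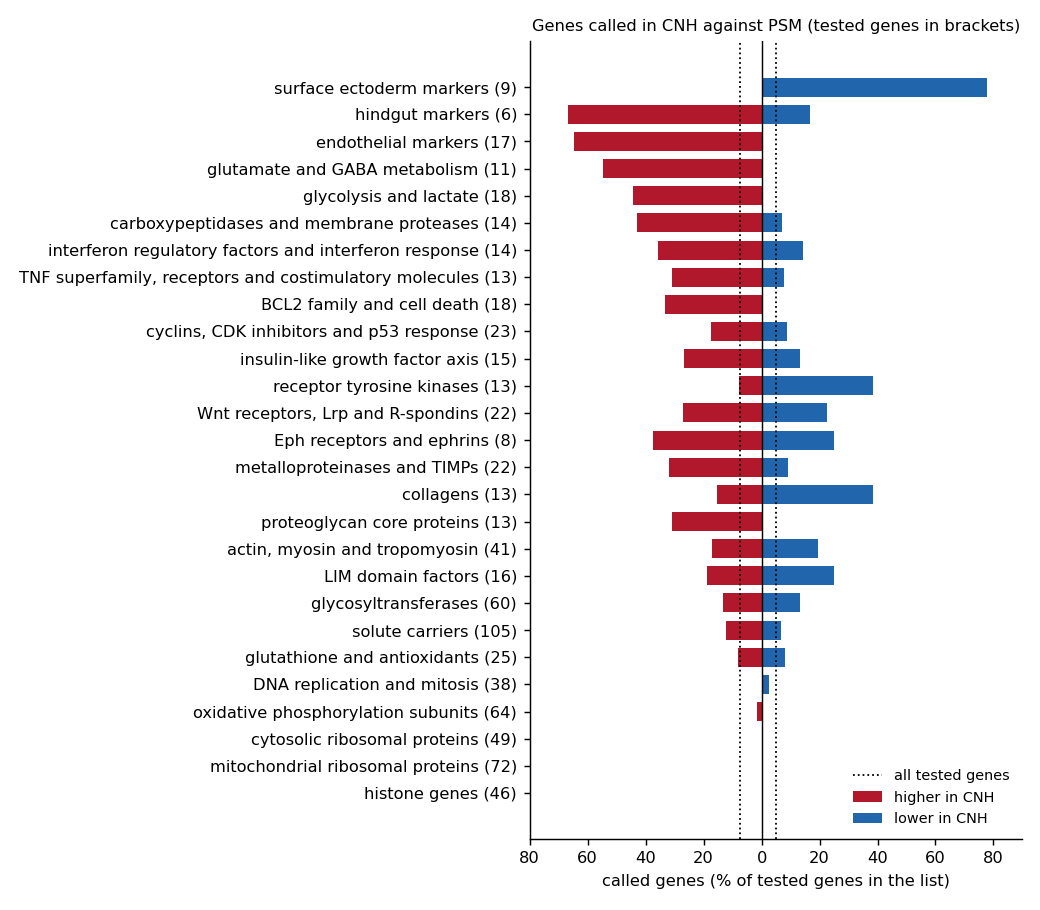
Share of the tested genes of each list (number tested in brackets) that were called higher in CNH, to the left, or lower in CNH, to the right, with dotted lines at the shares over all tested genes (7.5% and 4.92%). Surface ectoderm markers extend only to the right, endothelial, glutamate and glycolysis genes only to the left, and the ribosomal and histone lists have no bar.

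Contractile genes differed in both directions, and muscle and non-muscle members were found on both sides. Of 41 tested actins, myosins, tropomyosins and related genes, out of 80 on the array, 7 were higher and 8 lower (36.6% called). The median log2 fold change of -0.08 lay near that of all genes. Myl1, an essential light chain of fast skeletal muscle, was at 6.42, 6.76 and 7.96 in the CNH and 9.93, 9.89 and 10.51 in the PSM (-3.06, SE 0.17, adjusted p = 1.53e-06). The perinatal heavy chain Myh8 was at 4.55, 4.24 and 4.51 in the CNH, where no array detected it, and at 6.75, 6.77 and 7.05 in the PSM, at least 3.97-fold lower (adjusted p = 1.15e-05). Its 3 tested probes were all called.
Cardiac actin Actc1, which is also the embryonic skeletal actin, was at least 2.53-fold lower (adjusted p = 1.92e-05). The regulatory light chain Myl2 was lower (-1.53, SE 0.17, adjusted p = 0.000131), as was smooth muscle actin Acta2 (-0.78, SE 0.11, adjusted p = 0.000636, called by 3 of its 4 probes). Myocd, a coactivator of serum response factor (SRF) in heart and smooth muscle, was at 4.46, 4.52 and 4.78 in the CNH, with no array detecting it, and 6.93, 7.28 and 8.55 in the PSM, at least 6.57-fold lower (adjusted p = 9.21e-06). The non-muscle heavy chain Myh9 was higher instead (0.73, SE 0.15, adjusted p = 0.0059), as were the non-muscle regulatory light chain Myl12b (0.71, SE 0.12, adjusted p = 0.00167), the tropomyosins Tpm3 (0.63, SE 0.10, adjusted p = 0.00149) and Tpm1, a major muscle tropomyosin (0.65, SE 0.15, adjusted p = 0.0119, called by 1 of its 2 probes), and the slow skeletal troponin Tnnt1 (1.38, SE 0.11, adjusted p = 1.89e-05). The actin-binding thymosin Tmsb10, which is not a muscle isoform, was lower (-0.71, SE 0.10, adjusted p = 0.000661). The heavy chains Myh8 and Myh9 and the light chains Myl1 and Myl12b thus differed in opposite directions. Among the members not called were thymosin beta 4, Tmsb4x (0.44, adjusted p = 0.0545) and Tpm4 (0.15, adjusted p = 0.373).
Proteins that anchor or crosslink the cytoskeleton differed in both directions. Synm, a muscle intermediate filament protein, was at 5.26, 5.12 and 5.03 in the CNH and 7.94, 8.06 and 6.95 in the PSM (-2.51, SE 0.18), and Pgm5, a protein of muscle adherens junctions, was at least 6.43-fold lower. Add3, an adducin that caps actin, was lower by each of its 3 probes (-2.22, SE 0.11, adjusted p = 6.71e-07), as were the LIM proteins Fhl1 (-1.54) and Pdlim1 (-1.36). The focal adhesion protein Zyx (0.70), the filamin Flnc (0.89) and the LIM protein Crip2 (1.57) were higher. Without the replicate block Myl2, Acta2, Myh9, Myl12b, Tpm1, Tmsb10, Tpm3, Tnnt1, Add3, Flnc and Zyx were not called, with the deposited values Myh8, Actc1, Myl2, Acta2, Myh9, Tpm3, Tnnt1 and Flnc were not, and without background correction neither Tpm3 nor Flnc was. Myh9 was also not called without replicate 1 or without replicate 2 of all regions (log2 fold change 0.67 and 0.61). Tpm1 was not called either without replicate 1 (0.52) or replicate 2 (0.54) of all regions, without either of these arrays of the CNH (0.53 and 0.59) or of the PSM (0.57 and 0.55), with replicates 1 and 2 averaged (0.53), or without the filter on dim probes.

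Actc1 and Myl1 were chosen from the lower contractile genes because a motif was found there, and the 250 bases before their annotated start are shown, taken from RefSeq promoters of build GRCm38.p6 and written 5′ to 3′ on the strand of the gene, with matched motifs in capitals. The motifs described, searched on both strands, were the CArG box that SRF binds and the E-box CAGCTG that myogenic bHLH factors can bind.
Actc1, chr2:114052876-114053125, minus strand: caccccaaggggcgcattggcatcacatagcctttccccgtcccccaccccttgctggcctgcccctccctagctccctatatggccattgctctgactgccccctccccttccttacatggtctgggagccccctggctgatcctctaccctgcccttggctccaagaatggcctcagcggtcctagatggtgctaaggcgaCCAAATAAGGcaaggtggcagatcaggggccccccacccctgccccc
Myl1, chr1:66945057-66945306, minus strand: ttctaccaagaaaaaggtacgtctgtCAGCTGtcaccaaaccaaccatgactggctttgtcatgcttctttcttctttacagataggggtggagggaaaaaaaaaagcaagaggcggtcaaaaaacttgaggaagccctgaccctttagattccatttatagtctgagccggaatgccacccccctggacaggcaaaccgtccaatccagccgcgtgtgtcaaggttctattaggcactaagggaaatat
The promoter of Myh8, which had a larger difference than Actc1, held neither motif. Actc1 held a CArG box beginning 47 bases before its start, and Myl1 held an E-box beginning 224 bases before its start. Among the promoters in the table, 1.47% (482 of 32851) held a CArG box in the same window and 13.0% (4271) held CAGCTG. The shares that follow count genes, and a gene held a motif if any of its listed starts did. On that count, 1.36% of the 6259 tested genes with a promoter held a CArG box and 13.1% held CAGCTG. Among all called genes with a promoter in the table, CAGCTG was present in 19.8% of the 444 higher in the CNH and 16.3% of the 288 lower, and the CArG box in 1.58% and 2.78%. Of the 7 lower contractile genes with a promoter in the table, 2 held a CArG box and 3 held CAGCTG, against 1 and 1 of the 7 higher genes and 3 and 5 of the 25 not called. These are matches of letters in a short window.

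**Figure D3:**
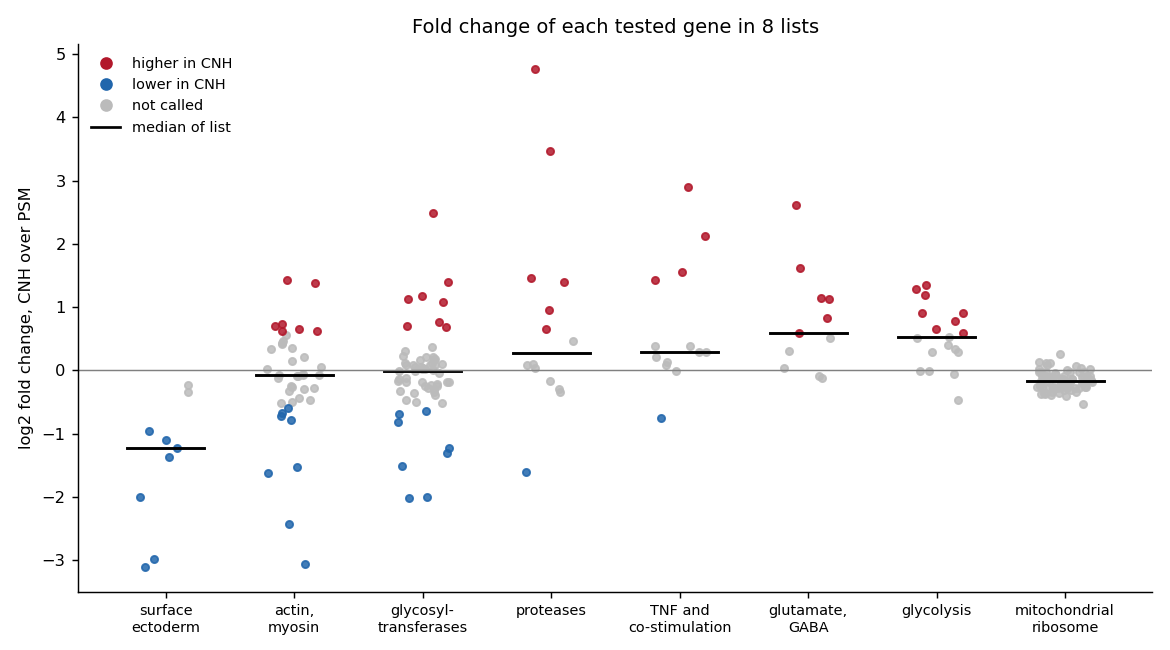
Log2 fold change, CNH over PSM, of each tested gene in 8 lists, coloured by call, with the median of the list as a line. The surface ectoderm genes all lie below 0, the actin and myosin genes and the glycosyltransferases spread to both sides of a median near 0, the glutamate and glycolysis genes lie mostly above 0, and the mitochondrial ribosomal proteins form a narrow band.

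Among epithelial genes, the tested surface ectoderm markers were lower in the CNH or not called, and most tested hindgut markers were higher. Of 17 surface ectoderm markers on the array 9 were tested, 3 of them only because the PSM arrays detected them. Of the 9, 7 were lower in the CNH and 0 higher, with a median of -1.22, and 0 had a log2 fold change above 0. Trp63, the master factor of stratified epithelium, was at 5.23, 4.90 and 4.35 in the CNH and 7.91, 7.98 and 7.90 in the PSM (-3.11, SE 0.20, adjusted p = 3.92e-06), with 1 of 3 CNH arrays detecting it. The basal keratin Krt14 was at 5.22, 5.56 and 5.07 in the CNH and 8.29, 8.20 and 8.30 in the PSM (-2.99, SE 0.14, adjusted p = 5.03e-07). For both genes the PSM arrays lay close together and above every CNH array.
The ligands Wnt7b (-2.0) and Wnt6 (-0.96), the tight junction protein Cldn4 (-1.36) and the epithelial splicing factor Esrp1 (-1.22) were lower too, and Krt17 was at least 1.59-fold lower. Tfap2c (-0.23, adjusted p = 0.42) and Sfn (-0.35, adjusted p = 0.13) were not called. The summed normalised signal of the 9 markers, on a linear scale, was 563 to 726 on the CNH arrays and 1584 to 2134 on the PSM arrays, with Krt17 detected on no CNH array and all 9 detected on the PSM arrays. In pooled tissue, fewer cells of a type and less RNA per cell cannot be told apart.
Most tested hindgut markers ran the other way. Of 15 on the array 6 were tested, 2 of them only because the CNH arrays detected them and 1 only because the PSM arrays did. Of the 6, 4 were higher and 1 lower, with a median of 2.10. Tmprss2 was at 8.77, 8.76 and 8.99 in the CNH and 4.94, 5.24 and 5.91 in the PSM (SE 0.15, adjusted p = 4.17e-07). Elf3 was at 7.11, 7.22 and 8.46 in the CNH and 4.83, 4.86 and 5.12 in the PSM (SE 0.24, adjusted p = 3.76e-05), and was called by 1 of its 2 probes. The endodermal factor Foxa3 was at least 4.59-fold higher, and the kinase Ripk4 was higher (1.54), whereas E-cadherin, Cdh1, was lower (-1.12, adjusted p = 0.00128). The summed signal of the hindgut markers was 1399 to 2339 in the CNH and 886 to 1468 in the PSM. These ranges overlap, but within each replicate number the sum was higher in the CNH (1399 against 886, 1446 against 891 and 2339 against 1468). Most of this difference lay in Tmprss2 and Elf3, so the sums do not give the direction of the other hindgut markers.
Claudins, which seal epithelial and endothelial junctions, followed no common direction, with 1 of 11 tested higher and 3 lower (36.4% called). Cldn10 (-1.60) and Cldn11 (-1.50, detected on 1 of 3 CNH arrays) were lower, and the endothelial Cldn5 was higher (0.86). Among keratins, Krt19 was at least 2.21-fold higher, with no PSM array detecting it, and Krt8 was at 7.47, 7.28 and 8.04 in the CNH and 7.28, 7.62 and 8.36 in the PSM (-0.16, SE 0.15, adjusted p = 0.533). Without the block Foxa3, Ripk4, Cdh1, Esrp1, Wnt6 and Cldn5 were not called, with the deposited values Wnt7b, Wnt6, Cldn4, Krt17, Ripk4, Cdh1, Krt19, Cldn5, Cldn10 and Cldn11 were not, and without background correction Krt17, Krt19, Cdh1 and Wnt6 were not. Krt17 was also not called with an offset of 50.

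**Figure D4:**
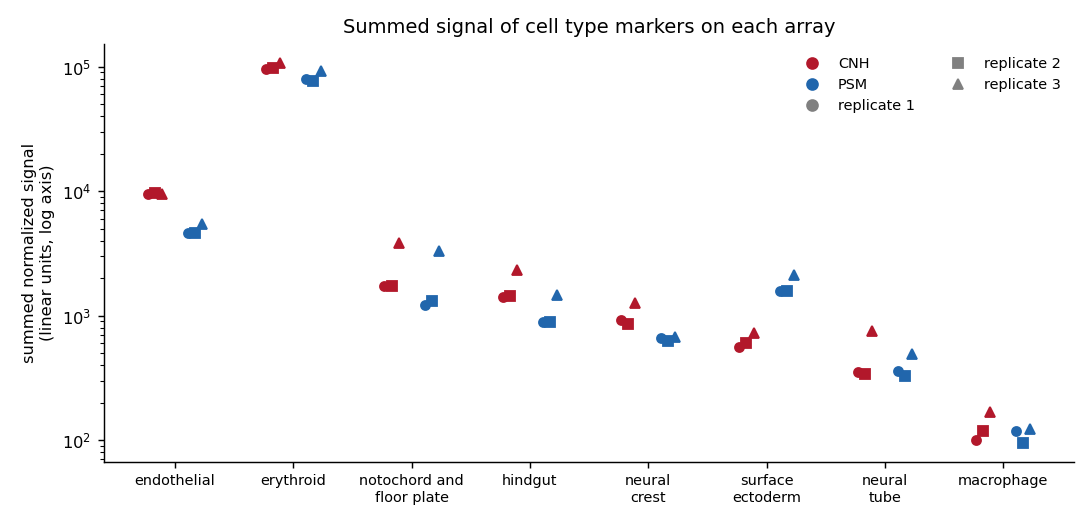
Summed normalised signal (linear units on a log axis) of the tested markers of 8 neighbouring cell types on each CNH and PSM array, with symbols for replicates 1 to 3. The endothelial sums of 9529 to 9749 in CNH and 4569 to 5416 in PSM, and the surface ectoderm sums of 563 to 726 in CNH and 1584 to 2134 in PSM, do not overlap.

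Markers of other neighbouring cells moved with the regions to different degrees. Of 24 endothelial markers on the array 17 were tested, 2 of them only because the CNH arrays detected them. Of the 17, 11 had a higher call and 0 a lower one, all 17 had a log2 fold change above 0, and the median was 0.78. Etv2, which starts the endothelial and blood lineages, was at 8.08, 8.41 and 8.0 in the CNH and 6.37, 6.54 and 6.48 in the PSM (1.70, SE 0.13, adjusted p = 1.3e-05). Lmo2 (1.31), Ramp2 (1.13) and endomucin, Emcn (1.08), were also higher. Their summed signal was lower on each PSM array than on any CNH array.
Erythroid markers were higher in 3 of 10 cases and lower in none (median 0.45), with summed signals of 96222 to 107197 in the CNH and 77182 to 91631 in the PSM. The globins Hba-a1 (0.13) and Hbb-y (0.34) were not called. Of the 3 tested macrophage markers none was called. Of 9 tested notochord and floor plate markers 4 were higher and none lower (median 0.55), and 3 of the 9 were tested only because the CNH arrays detected them. Shh, the floor plate morphogen, was at least 4.49-fold higher, and the BMP antagonist Chrd was at 1.95. Of 5 tested neural crest markers 1 was higher, Ngfr (1.44), and 2 were lower. Of the 5, 2 were tested only because the PSM arrays detected them. The summed signals were 852 to 1251 in the CNH and 628 to 670 in the PSM, which do not overlap. Ngfr alone was at 8.91, 8.82 and 9.94 in the CNH and 7.55, 7.41 and 8.41 in the PSM. The difference in the sums rests largely on this gene and does not give the direction of the other markers. Of 19 neural tube markers on the array 2 were tested, 1 of them only because the CNH arrays detected it, and 1 was higher. The sums were 337 to 748 in the CNH and 324 to 495 in the PSM. The part of these tissues in the other differences was not tested. Emcn and Chrd were not called with the deposited values.

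Some proteases were higher in the CNH by a wide margin, while as many of those tested were called in neither direction as in either. Of 14 tested carboxypeptidases, convertases and membrane proteases, out of 33 on the array, 6 were higher, 1 was lower and 7 were not called (median 0.28). After Cpn1 and Tmprss2 came Furin, the convertase that cuts precursors in the Golgi, at 9.37, 9.42 and 9.42 in the CNH and 8.06, 7.93 and 7.86 in the PSM (1.46, SE 0.11, adjusted p = 8.59e-06). Its paralogue Pcsk6, which also processes TGF-beta family ligands, was lower, at 5.30, 5.36 and 5.40 in the CNH and 6.90, 7.02 and 6.95 in the PSM (-1.61, SE 0.12, adjusted p = 9.21e-06). For both convertases the arrays of a region lay close together, and the regions did not overlap in either.
The mitochondrial presequence protease Pitrm1 (1.39), carboxypeptidase M, Cpm (0.96), and the insulin-degrading enzyme Ide (0.66) were higher as well. Dpp7 (0.09) and the endothelin-converting enzyme Ece1 (0.46) were not called. Pcsk6, Cpm and Ide were not called with the deposited values, nor Pitrm1, Cpm and Ide without the block, nor Cpm and Ide without background correction.

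Several genes better known from immune cells were higher in the CNH. Of 14 macrophage markers on the array 3 were tested, with summed signals of 100 to 167 in the CNH and 95 to 122 in the PSM, no markers of B cells or dendritic cells were listed, and the part of immune cells in these differences was not tested. Of 13 tested genes of the TNF superfamily and co-stimulation, 4 were higher and 1 lower (38.5% called, against 12.4% of all tested genes, median 0.30). Cd40, a TNF receptor that activates B cells, was at 9.52, 9.58 and 9.20 in the CNH and 6.28, 6.36 and 6.95 in the PSM (SE 0.20, adjusted p = 6.5e-06), and each of its 3 probes was called. Cd83, a surface protein of dendritic cells, was at 7.70, 7.91 and 8.90 in the CNH and 5.54, 5.59 and 6.99 in the PSM (2.13, SE 0.13, adjusted p = 2.75e-06). The lowest CNH array of each gene lay above the highest PSM array.
The receptors Tnfrsf12a (1.56) and Ngfr (1.44), which binds neurotrophins and also stands among the neural crest markers, were higher, whereas Tnfrsf21 was lower (-0.75, adjusted p = 0.00385), a call not made without replicate 2 of all regions (-0.61). Rela, a subunit of NF-kappaB, was not called (0.39, adjusted p = 0.0829).
Of 14 tested genes of the interferon response, 5 were higher and 2 lower (median 0.25). Irf1, a transcription factor induced by interferon, was at 9.16, 9.25 and 9.59 in the CNH and 6.65, 6.61 and 7.46 in the PSM (2.43, SE 0.12, adjusted p = 9.21e-07), and all 3 of its probes were called. The related Irf2 was higher by less (0.93, SE 0.10), and the interferon-induced genes Samd9l and Oasl2 were at least 5.11-fold and at least 1.91-fold higher. The interferon-induced membrane proteins moved the other way: Ifitm3 was lower (-1.30, SE 0.16, adjusted p = 0.000226), as was Ifitm1, at 12.93, 12.93 and 11.59 in the CNH and 13.55, 13.50 and 12.29 in the PSM (-0.63, SE 0.10). Ifitm2 was not called (-0.05).
Tnfrsf21 was not called without background correction, without the block Cd83, Ngfr, Tnfrsf21, Samd9l, Oasl2, Ifitm1 and Cxcl14 were not, and with the deposited values Tnfrsf12a, Tnfrsf21, Irf2, Oasl2 and Cxcl14 were not.

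Genes of the glutamate and GABA list were higher in the CNH or not called. Beside enzymes and transporters of both, the list held the neutral amino acid transporter Slc1a4 and Gabarap with its relatives. Of 11 tested, out of 18 on the array, 6 were higher and none lower, with a median of 0.59. Gad1, which makes GABA from glutamate, was at 9.37, 9.04 and 10.05 in the CNH and 6.24, 6.55 and 7.83 in the PSM (2.61, SE 0.17, adjusted p = 3.93e-06), and its 3 probes were all called. The neutral amino acid transporter Slc1a4 (1.61), the glutamate transporter Slc1a3 (1.14) and Gabarapl1 (1.13), a relative of the GABA receptor-binding protein that acts in autophagy, were higher. Got2 (0.30) and Gabarap (0.04) were not called.
Glycolysis genes were higher in 8 of 18 cases and lower in none (median 0.53). The enolase Eno3 was at 9.62, 9.57 and 9.30 in the CNH and 8.24, 8.22 and 7.96 in the PSM (1.36, SE 0.11, adjusted p = 1.62e-05), followed by Aldoc (1.28), the glucose transporter Slc2a3 (1.19) and Pgm1 (0.90). Ldha, a subunit of lactate dehydrogenase (0.30, adjusted p = 0.169), and Tpi1, the triosephosphate isomerase (0.34, adjusted p = 0.0717), were not called. Of 64 tested subunits of oxidative phosphorylation 1 was higher and none lower, with a median of -0.08.
Elsewhere in metabolism single genes differed by much more than the median of their list. Smox, which oxidises spermine, was at 10.10, 10.24 and 9.52 in the CNH and 8.07, 8.20 and 8.10 in the PSM (1.83, SE 0.14, adjusted p = 1.41e-05) and was called by all 5 of its probes, while Odc1, which starts polyamine synthesis, was not called (0.00, SE 0.13, adjusted p = 0.994), nor was spermidine synthase, Srm (-0.32). Gldc, the glycine decarboxylase, differed by 2.03, 2.02 and 2.07 in replicates 1, 2 and 3 (2.04, SE 0.10, adjusted p = 6.71e-07), and it was the only higher gene of 13 tested for serine, glycine and one-carbon metabolism. The folate carrier Slc19a1 was the only lower gene of that list (-0.83). The share called in that list, 15.4%, lay near the 12.4% of all tested genes. Uap1l1, a relative of the enzyme that makes UDP-N-acetylglucosamine, was higher (2.43, SE 0.11) and Gmds, which starts GDP-fucose synthesis, lower (-1.22, SE 0.10).
Among antioxidant enzymes Gpx2 was at 5.30, 5.36 and 5.17 in the CNH and 8.17, 8.15 and 8.73 in the PSM (SE 0.15, adjusted p = 6.71e-07), whereas the microsomal glutathione transferase Mgst1 was at 9.26, 9.05 and 7.47 in the CNH and 6.68, 6.46 and 6.08 in the PSM (2.19, SE 0.22, adjusted p = 7.88e-05). Of the 25 tested in that list, 2 were higher and 2 lower. The acyl-CoA thioesterases Acot7 (1.29, by 4 of 4 probes) and Acot1 (1.08) were the only called genes of 22 in fatty acid metabolism (9.09%, near the 12.4% of all tested genes).
Of 105 tested solute carriers 13 were higher and 7 lower (19.05% called, against 12.4% of all tested genes). Slc7a7, a light chain for the export of dibasic amino acids, was higher (2.28, SE 0.18, adjusted p = 1.27e-05), and the sodium-calcium exchanger Slc24a3 lower (-1.61, SE 0.19, adjusted p = 0.000242). Without the block Slc1a4, Slc1a3, Gabarapl1, Aldoc, Pgm1, Gldc, Slc19a1, Slc24a3, Uap1l1, Mgst1 and Acot1 were not called, and with the deposited values Aldoc, Slc19a1, Slc24a3 and Slc7a7 were not, nor was Aldoc without background correction.

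Glycosyltransferases and sulphotransferases were split evenly, with 8 of 60 tested higher and 8 lower (26.7% called) and a median of -0.01. Gcnt2, which branches poly-N-acetyllactosamine chains, was at 9.0, 9.17 and 10.64 in the CNH and 6.53, 6.33 and 8.50 in the PSM (2.48, SE 0.13, adjusted p = 1.49e-06), and Gcnt1, which makes branched O-glycans, was higher as well (1.40). Enzymes that sulphate chains went both ways. The heparan sulphate 3-O-sulphotransferase Hs3st3a1 was at 6.27, 6.46 and 7.41 in the CNH and 8.62, 8.62 and 8.93 in the PSM (-2.01, SE 0.16, adjusted p = 1.3e-05), and its close relative Hs3st3b1 was lower too (-1.31, SE 0.14). Chst15, which sulphates chondroitin, was lower (-2.01, SE 0.11, adjusted p = 1.62e-06), but Chst7, which also sulphates chondroitin, was higher (1.12, SE 0.13, adjusted p = 0.000225). Galnt16, which starts O-glycans, was lower (-1.52). Gcnt2, Gcnt1, Chst15 and Galnt16 were not called without the block, nor Gcnt1, Hs3st3b1 and Galnt16 with the deposited values.

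Called higher in the CNH were the cell cycle inhibitors Cdkn1a and Cdkn1c and the promoters of cell death Bik, Bmf and Bbc3, among others. The growth arrest gene Gadd45g was lower, and 1 gene of the DNA replication and mitosis list was called. Of 18 tested genes of the BCL2 family and cell death 6 were higher and none lower (33.3% called, median 0.18). Bik, a BH3-only protein, was at 7.14, 7.11 and 8.17 in the CNH and 4.76, 4.43 and 4.61 in the PSM, where no array detected it, at least 5.83-fold higher (adjusted p = 2.82e-05). The BH3-only protein Bmf (1.26, SE 0.11) was higher too.
Of 23 tested cyclins, inhibitors and p53 response genes 4 were higher and 2 lower (26.1% called, against 12.4% of all tested genes, median 0.15). The study also names cyclin D1, which stands on this list, as enriched in the CNH. Beside Cdkn1a and Bbc3, a BH3-only target of p53 (1.66, SE 0.19), the inhibitor Cdkn1c (p57) was at 12.28, 12.43 and 13.10 in the CNH and 11.36, 11.38 and 11.58 in the PSM (1.16, SE 0.14, adjusted p = 0.000191). The growth arrest gene Gadd45g was lower, at 8.43, 8.28 and 9.41 in the CNH and 11.05, 11.19 and 10.93 in the PSM (-2.35, SE 0.24, adjusted p = 8.68e-05). Of 38 tested genes of DNA replication and mitosis none was higher and 1 lower (2.63% called, median -0.11). The lower gene, Rrm2 (-0.62, SE 0.16, adjusted p = 0.0241), was called by 1 of its 2 probes, and its CNH and PSM arrays overlapped. Its call was lost in 13 alternatives, among them no replicate block, no background correction and the deposited values. Cenpa (-0.17), a centromeric histone, and Mcm4 (-0.06), a subunit of the replicative helicase, were not called. Bmf and Cdkn1c were not called without the block, Bbc3 and Bmf with the deposited values, and Bmf without background correction.

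**Figure D5:**
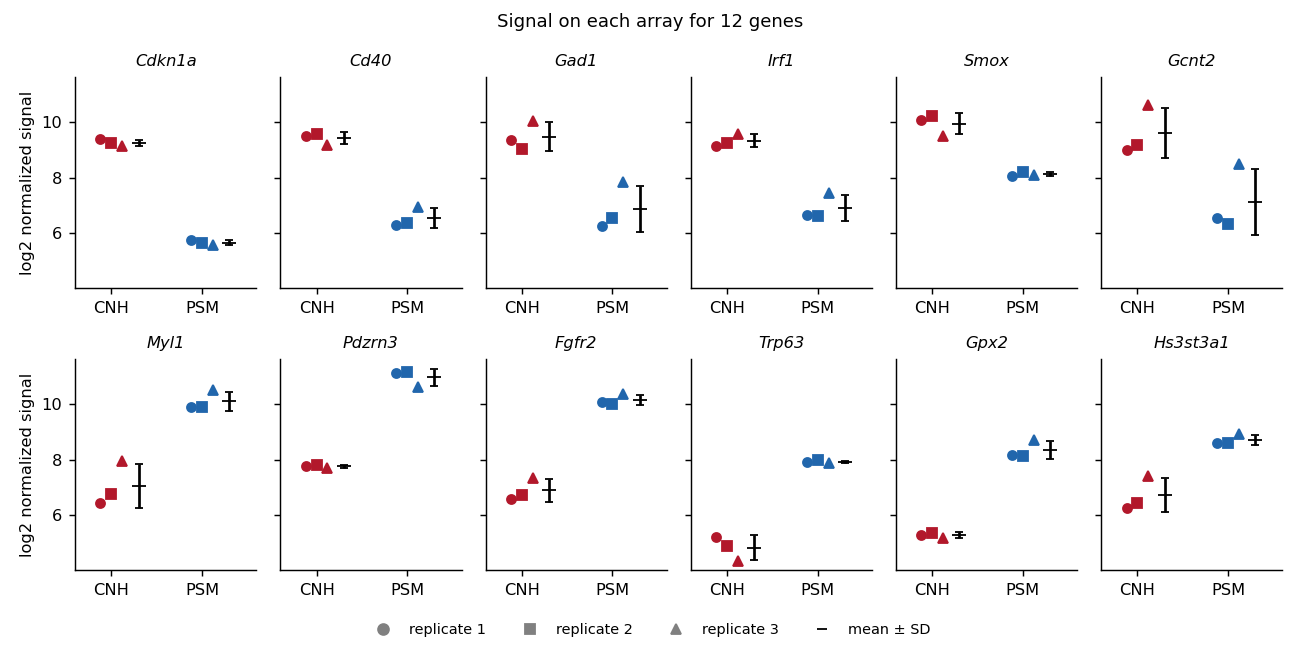
Log2 normalised signal on each CNH and PSM array for 12 genes named in the text, with symbols for replicates 1 to 3 and the mean with its SD (n = 3). The 6 genes of the upper row lie higher on every CNH array than on any PSM array, and the 6 of the lower row lie lower.

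Receptors for growth factors differed in both directions. Of 13 tested receptor tyrosine kinases and coreceptors 1 was higher and 5 were lower (46.2% called, against 12.4% of all tested genes), with a median of -0.52. Beside Fgfr2, the GDNF family coreceptor Gfra3 was lower (-1.71, SE 0.14, adjusted p = 1.96e-05), as was Pdgfra, which marks paraxial mesoderm (-0.94, SE 0.11, adjusted p = 0.000247). The insulin receptor Insr was the exception, at 8.64, 8.67 and 10.23 in the CNH and 7.47, 7.13 and 9.06 in the PSM (1.29, SE 0.12, adjusted p = 5.37e-05). The related Igf1r missed the fold limit (0.57, SE 0.11, adjusted p = 0.00411), and Axl was at -0.55 (adjusted p = 0.0574).
Of 15 tested genes of insulin-like growth factor signalling 4 were higher and 2 lower (median 0.12). The binding protein Igfbp7 was at 7.43, 7.24 and 6.99 in the CNH and 5.13, 4.78 and 4.98 in the PSM (2.26, SE 0.14, adjusted p = 2.7e-06), the adaptor Irs2 was higher (1.25, SE 0.13), and Pappa, a protease that frees IGF from its binding proteins, was at least 1.67-fold lower. Igf2 itself was not called (0.16).
Wnt receptors were divided. Of 22 tested genes of the receptor list 6 were higher and 5 lower (median 0.07). Fzd2 was at 5.59, 5.18 and 5.64 in the CNH and 7.22, 7.57 and 6.83 in the PSM (-1.74, SE 0.19, adjusted p = 0.000132) and Fzd7 was lower (-1.10, SE 0.15, adjusted p = 0.00047), whereas Fzd10 was higher by each of its 3 probes (0.93, SE 0.13, adjusted p = 0.000568). The secreted activator Rspo3 (1.24) and the membrane inhibitor Apcdd1 (1.62) were higher, and the repressor Tcf7l1 was lower (-1.24). Pdgfra, Insr, Fzd7, Fzd10, Tcf7l1 and Apcdd1 were not called without the block, and Gfra3, Pdgfra, Igfbp7, Irs2, Pappa and Fzd2 were not with the deposited values. Pappa was also not called without background correction or with an offset of 50.

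In the matrix 53.8% of the tested collagens, 30.8% of the proteoglycan core proteins and 40.9% of the metalloproteinases and their inhibitors were called. The share over all tested genes was 12.4%. The medians of these families lay near that of all genes. Of 13 tested collagens 2 were higher and 5 lower, with a median of -0.08 that was -0.35, -0.38 and 0.22 in replicates 1, 2 and 3 and changed sign in 4 of 23 alternatives. Col26a1 was at 7.15, 6.80 and 8.37 in the CNH and 9.67, 9.71 and 9.83 in the PSM (-2.30, SE 0.22, adjusted p = 5.66e-05), Col8a1 was at least 2.35-fold lower, and Col23a1 was lower (-1.58). The basement membrane chains Col4a1 (-0.07) and Col4a2 (-0.08) were not called. Of 13 tested proteoglycan core proteins 4 were higher and none lower (median 0.07), led by biglycan, Bgn, at 8.19, 8.23 and 8.01 in the CNH and 6.67, 6.57 and 6.62 in the PSM (1.52, SE 0.11, adjusted p = 7.72e-06).
Of 22 tested metalloproteinases and their inhibitors 7 were higher and 2 lower (median 0.15). Adamtsl2, a secreted relative of these proteases with no catalytic domain, was at 7.52, 7.63 and 8.93 in the CNH and 5.19, 4.87 and 6.62 in the PSM (2.47, SE 0.16, adjusted p = 5.04e-06). Adam23 (1.64) and Adamts9 (1.39) were higher and Adamts12 was lower (-1.39), while Mmp14 (-0.07) was not called.
Among axon guidance genes, which also steer mesoderm and set segment borders, Slit2 was at 8.70, 8.67 and 9.12 in the CNH and 6.11, 6.35 and 7.42 in the PSM (2.20, SE 0.16, adjusted p = 9.71e-06). Of 8 tested Eph receptors and ephrins 3 were higher and 2 lower (62.5% called). The ligand Efna1 was higher (1.07, SE 0.14, adjusted p = 0.000516) and the related Efna5 lower (-1.47, SE 0.12, adjusted p = 1.85e-05), and the receptors Epha2 (1.30) and Epha1 (1.19) were higher. Of 12 tested semaphorins and plexins 1 was higher, Plxnd1 (0.98), and 3 were lower, with Sema5a at -0.96 (33.3% called). Adamtsl2, Adam23, Adamts9, Adamts12, Efna1, Efna5, Epha1 and Plxnd1 were not called without the block, nor Epha2 without background correction, and Epha1, Col8a1, Col23a1, Bgn, Adam23, Adamts9, Adamts12, Efna1, Epha2, Plxnd1 and Sema5a were not with the deposited values.

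Several large groups of housekeeping genes had few calls or none. None of 49 tested cytosolic ribosomal proteins, of 72 mitochondrial ribosomal proteins or of 46 histone genes was called in either direction, with medians of -0.08, -0.17 and 0.05. Of 46 translation factors none was higher and 1 lower. The extreme values among the mitochondrial ribosomal proteins were -0.52 and 0.25.

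Compared with the TBM, few genes differed from the CNH. The same threshold called 94 of 7670 genes between CNH and TBM (1.23%). The genes tested were those detected on every array of the CNH or of the PSM, so genes detected in the TBM alone could not be called. The comparison uses the same CNH arrays as that with the PSM, so the values are given side by side only. Cdkn1a was at 7.49, 7.59 and 7.67 on the TBM arrays and 1.68 log2 units higher in the CNH (SE 0.12, adjusted p = 0.000318), and Cpn1 was at 6.71, 6.81 and 7.51 and 1.96 units higher in the CNH (SE 0.16, adjusted p = 0.000451).
For Fgfr2 the TBM arrays were at 7.38, 7.57 and 7.92, and the CNH was lower (-0.73, SE 0.12, adjusted p = 0.0199). Cd40 (0.27), Gad1 (0.53), Irf1 (0.45), Smox (0.34), Myl1 (-0.14), Pdzrn3 (-0.23) and Cxcl12 (-0.18) were not called between CNH and TBM.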

How the data were processed

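Arrays of CNH and PSM, and of TBM for the shared estimate of spread, were grouped by their labels. Per the labels and methods, the authors deposited probe intensity values that were not normalised, with a detection p-value for each probe and array, and a table of log2 values after variance stabilisation and robust spline normalisation in lumi. The genome build of the array was not given in the sources used here. Intensities were background-corrected and quantile-normalised with neqc (offset 16) and tested in limma 3.58.1 (R 4.3.3) over all 9 arrays, with the replicate number as a block, and p-values were adjusted over the 12121 tested probes. Detected probes numbered 13621 to 14809 per array, and the number of arrays limits the precision. Replicate numbers come from the sample names. Deviations of same-numbered CNH and PSM arrays from their region means correlated at 0.859 to 0.935, mostly through replicate 3. CNH replicate 1 with PSM replicate 2, and CNH replicate 2 with PSM replicate 1, correlated at 0.865 each. These values therefore set replicate 3 apart but do not show how replicates 1 and 2 pair.
A lower bound sets the mean of the region with the higher signal against the detection limit of the other. The members and lists were chosen with earlier results of these data known. Named were the 12 largest differences each way, up to 4 called members of a list, up to 2 uncalled members with high signal and paralogue pairs with opposite calls. Tpm1, Tmsb10, Tpm3, Tnnt1, Acta2, Esrp1, Wnt6, Pitrm1, Cpm, Ide, Irf2, Ifitm1, Gcnt1, Hs3st3b1 and Chst7 were chosen after their values were seen. Alternatives changed the background correction, scaling, filter, threshold, block and arrays. The fit was tested on simulated data. A further promoter motif that was searched is not reported here.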

Additional observations from a re-analysis of the deposited data

How the results depend on the processing

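With all other steps kept, the number of probes called (1386, of which 820 were higher in the CNH and 566 lower) was 647, 390 and 257 without background correction, 882, 523 and 359 with an offset of 50, and 279, 173 and 106 with the authors' deposited values. It was 919 and 534 higher among probes detected on all 6 arrays, and 597, 351 and 246 at an adjusted p of 0.01 and a 2-fold difference. Without the replicate block the counts were 355, 197 and 158. Leaving out single arrays or replicate numbers gave 1275 to 1540 calls, with 755 to 869 higher and 514 to 671 lower. Median scaling, no filter on dim probes, the 6 arrays alone and averaged replicates stayed within 1.5 times of the main counts. The rules for naming gave 403 genes, not all of which stand in the text, and 248 of them were called. None of the 248 changed its direction under any of these settings. Of the 248, 62 lost their call under none of the settings in which they were tested, the stricter threshold not counted. Of the 403 genes, 337 were tested among probes detected on all 6 arrays. Dim probes near background limit the fold that can be measured, and with 3 arrays a region, of which 1 may be technical, smaller differences can be missed.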
